A study of Saccharomyces cerevisiae and Schizosaccharomyces pombe with 8 samples.

Results

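Convergent genes are neighbours on opposite strands that are transcribed towards each other, so that their 3' ends face one another across a shared stretch of DNA. In the fission yeast Schizosaccharomyces pombe, 1241 pairs of neighbouring coding genes were chosen because their stop codons face each other 1 to 1000 nt apart with no coding gene in between. They hold 2482 of the 5113 nuclear coding genes, or 48.5%. The choice used the annotation alone and no read. The distance between the stop codons had a median of 352 nt and quartiles of 226 and 526 nt. Another 139 convergent neighbours were wider than 1000 nt and were left out, as were 2 whose stop codons abut with no base in between. Pairs whose coding regions overlap were not counted. Chromosome I held 574 of the pairs, chromosome II 466 and chromosome III 201.

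An RNA polymerase II transcript ends where the nascent RNA is cut and given a poly(A) tail, and the polymerase then terminates further downstream. Between convergent genes the place of that cut decides whether the RNAs share complementary sequence. Pcf11 is a subunit of the cleavage factor that binds the polymerase tail and acts in both cleavage and termination, and Pab2 is a nuclear poly(A)-binding protein that in fission yeast works with the RNA exosome. In fission yeast, convergent genes are known for read-through RNAs and for the RNA interference factors that can act on double-stranded RNA.

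The libraries hold reads at the 3' ends of poly(A)+ RNA, made from total RNA, and each read gives a strand and a position. The groups used had 1 library each. Wild-type cells were grown in rich or in minimal medium, cells of a PAB2 mutant in rich medium, and cells of a PCF11 mutant in minimal medium. Neither the mutations nor the media are described, and each group has no replicate here, so no test between groups was possible and every difference below compares 1 library with 1 library. Each mutant was set against the wild type of its own medium. Values for all libraries are given in the order of wild type in rich and in minimal medium, the PAB2 mutant, and the PCF11 mutant.

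In that order, total reads were 3647664, 2702105, 4488357 and 3414864. Reads of pcf11 itself stood at 15 in the PCF11 mutant (4.39 CPM, reads scaled to the library total) and 83 in the minimal-medium wild type (30.8 CPM). Reads of pab2 stood at 156 in the PAB2 mutant (34.8 CPM) and 218 in the rich-medium wild type (59.8 CPM). Since the mutations are not described, 3' end reads of these genes do not check the labels. Convergent genes took 49.4%, 47.1% and 45.9% of nuclear reads in the wild types in rich and minimal medium and the PAB2 mutant. They took 31.0% in the PCF11 mutant. The 10 most read genes of that library took 34.8%, and the 10 most read of its wild type 21.4%. Another set was the 10 genes most read over the 4 libraries together. Without it the shares of convergent genes were 38.0% in the PCF11 mutant and 46.4% in its wild type. In these bulk libraries, fewer cells with an RNA and less RNA per cell cannot be told apart.

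The stretches below show where the RNAs of 6 pairs ended. They were chosen because they hold the closest ends, the widest apart among the most read pairs, and the ends that stood elsewhere in the mutants. Each line gives 30 bases of the transcribed strand, 5' to 3', and the capital marks the base of the most used cleavage position. Cleavage positions of wild type are taken over both wild-type libraries. Sequences and coordinates are those of the RefSeq genome, which names its assembly ASM294v3, while the study's notes name ASM294v2. The deposited positions fitted it on all 3 nuclear chromosomes.
its3 in wild type: cttatgttcgtcagttcctcaccaAtcttt
tpp1 in wild type: taataatatagctttttgacaaagAttggt
eft202 in wild type: aaaatatgataattacttgcaatgAttttt
rpl35A01 in wild type: atttcgtcaagcgtgtgcttaaaaAcattt
rpt4 in wild type: taccaaacattgtttttccactctAcataa
rpt4 in the PCF11 mutant: gatcttttcaagtttactactcatAgttca
yip3 in wild type: agtcaaacatttgctttacttttaAttcat
nrf1 in wild type: atcaatttatttagtttcctcgtaAcatgt
nrf1 in the PCF11 mutant: atatatattaatttattctcttaaAgaact
vma11 in wild type: cgagtaaactacttttttctttctAttttc
vma11 in both mutants: aatgaaatttatcattatttcgcaAttcgg
SPBC11C11.06C in wild type: ctggcatagcactgtcatcacacaAtttat
SPBC11C11.06C in the PCF11 mutant: acggaataagaggaagtttcccatAgcggt

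The stretches of its3 (chrI:4074968-4074997, plus strand) and tpp1 (chrI:4074988-4075017, minus strand) overlap, and their most used positions, 4074992 and 4074993, are adjacent bases. Those of eft202 (chrIII:539898-539927, plus strand) and rpl35A01 (chrIII:540216-540245, minus strand) lie far apart. The stretch of rpt4 in wild type is chrIII:407505-407534 and in the PCF11 mutant chrIII:408717-408746, both on the plus strand. That of yip3 is chrIII:407591-407620 on the minus strand. On the plus strand, nrf1 has chrII:1665113-1665142 in wild type and chrII:1665789-1665818 in the PCF11 mutant. Likewise, vma11 has chrI:2059000-2059029 in wild type and chrI:2059529-2059558 in both mutants. SPBC11C11.06C, on the minus strand, has chrII:3359081-3359110 in wild type and chrII:3358384-3358413 in the PCF11 mutant. The wild-type stretches lie between the 2 stop codons. The mutant stretches lie opposite to the partner, that of rpt4 in an intron of yip3, that of nrf1 in an intron of SPBC21B10.15, that of vma11 in a coding exon of fpb26 and that of SPBC11C11.06C in a coding exon of knh1. None of the 30-base stretches holds AATAAA.

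Of the 1241 pairs, 418 had at least 20 reads of both genes in each of the 4 libraries, and the other 823 were left out of summaries over libraries. A gene's reads were those from the base after its stop codon to 500 nt past the partner's stop codon, and 14 of the 2482 windows were shortened at the next gene of the same strand. The pairs used were wider than all pairs, with a median of 434.5 nt between stop codons. They lay on all chromosomes, with 199 pairs on I, 158 on II and 61 on III. A gene's end is given as the median position of its reads. A pair is called overlapping where one gene's end lies at or past the other's, and the overlap probability is the percentage of all combinations of 1 read of each gene in which the 2 RNAs overlap.

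In wild type, most convergent genes ended before they met. In rich medium 96 of 418 pairs overlapped, or 23.0% (95% Wilson interval over pairs 19.2% to 27.2%), and in minimal medium 101 pairs did, or 24.2% (20.3% to 28.5%). In the PAB2 mutant 122 pairs overlapped, or 29.2% (25.03% to 33.7%), and in the PCF11 mutant 181 pairs, or 43.3% (38.6% to 48.1%). The intervals cover the sampling of pairs and not the spread between cultures. Both mutants therefore had more overlapping pairs than the wild type of their medium, by 6.22 and 19.1 percentage points, whereas the wild types differed by 1.20 points.

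Over the 4 libraries, in the order given, the gap between the ends had a median of 75, 72.5, 59 and 18 nt. Among overlapping pairs the overlap itself had a median of 75, 59, 89.5 and 131 nt. Genes ended a median of 151.5, 155.5, 160 and 191.5 nt past their stop codon. The PCF11 mutant thus stood apart in both the number and the length of overlaps.

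**Figure D1:**
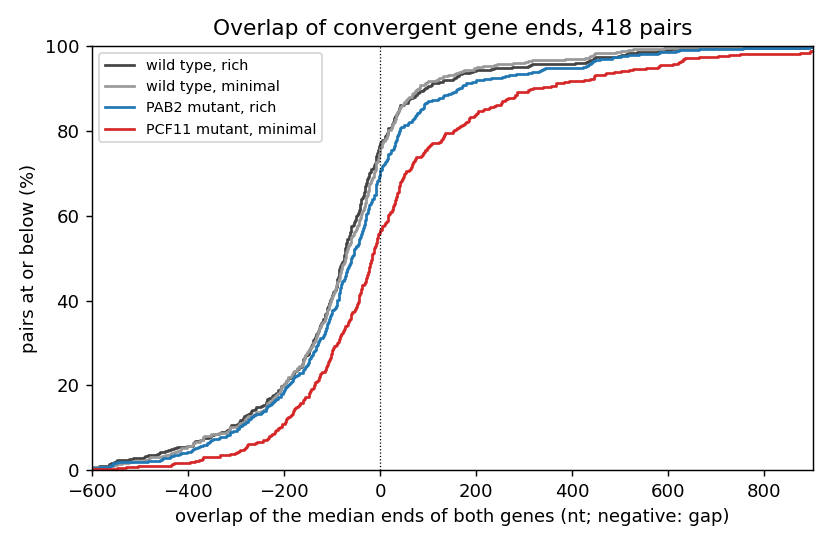
Cumulative percentage of the 418 pairs (y axis, %) whose overlap of median ends is at or below the value on the x axis (nt, negative values are gaps), one line per library. The dotted line marks ends that just meet, and the PCF11 mutant's line lies to the right of the others, with a median gap of 18 nt against 72.5 nt in the minimal-medium wild type.

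The overlap probability, which uses every read, had a median over pairs of 8.83% and 8.96% in the wild types, 15.4% in the PAB2 mutant and 42.4% in the PCF11 mutant. At least 90% of combinations overlapped in 34, 40, 53 and 95 pairs, in that order. No combination overlapped in 33, 48, 16 and 4 pairs. Pairs whose RNAs never overlapped in the reads at hand were thus few in the PCF11 mutant, although a value of 0 depends on the number of reads.

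The share of overlapping pairs was lower where stop codons lay further apart, and in the PCF11 mutant less so. In wild type in minimal medium it was 61.8% of the 34 pairs with 1 to 200 nt between stop codons and 11.11% of the 36 pairs with 801 to 1000 nt. In the PCF11 mutant the same groups of pairs gave 61.8% and 41.7% (27.1% to 57.8% for the widest pairs). In the PAB2 mutant they gave 61.8% and 13.9%, against 52.9% and 11.11% in the rich-medium wild type. Among the closest pairs 21 of 34 overlapped in both the PCF11 mutant and its wild type, while their median overlap probability was 97.3% against 71.4% and the mean share of reads past the partner's stop codon 34.1% against 26.7%. Among the widest, 15 against 4 of 36 pairs overlapped.

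**Figure D2:**
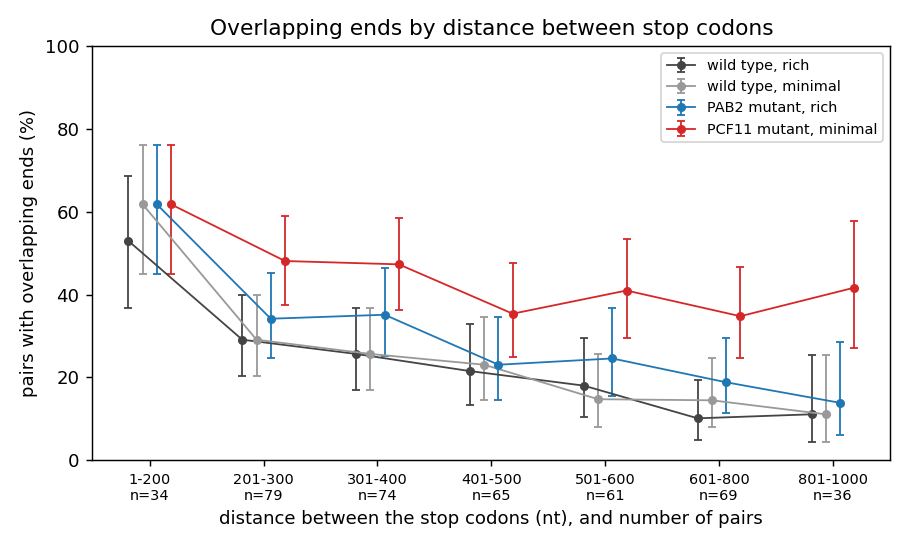
Percentage of pairs with overlapping ends (y axis, %) by distance between the stop codons (x axis, nt, with the number of pairs in each class), one line per library, with 95% Wilson intervals over pairs as bars. Wild-type values run from above 50% in the closest class to 11.11% in the widest, while the PCF11 mutant stays at 34.8% or above in every class.

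Reads past the partner's stop codon lie antisense to the partner's coding region or its introns, unless the partner is shorter than the window. The length of the partner was not checked. Averaged over the 836 genes of the 418 pairs, they made up 6.15% and 6.06% of a gene's reads in the wild types, 8.17% in the PAB2 mutant and 14.9% in the PCF11 mutant. The mean weights every gene equally and is higher than the share of all reads pooled, which was 1.80%, 1.76%, 3.04% and 6.01%. Of the 30420 pooled reads past the partner's stop codon in the PCF11 mutant, 9888 lay at a single position of SPBC11C11.06C. The pooled share of that library thus rests in large part on 1 gene. At least 1 such read was found for 301, 273, 391 and 630 of the 836 genes, and more than 50% of reads lay there for 48, 44, 60 and 88 genes. In the PCF11 mutant, at least 1 read past the partner's stop codon was thus found for most of these 836 genes, and such reads dominated in few. The median gene had 2.41% of its reads there, and a count based on 1 read depends on depth.

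The values depend on which pairs are counted. Reads past the partner's stop codon averaged 3.15%, 3.22%, 4.26% and 7.52% of a gene's reads when counted to 200 nt instead of 500 nt past it, and 12.2%, 12.3%, 14.9% and 23.0% in the 91 pairs with no other annotated gene in the windows. The order of the mutants above the wild types was the same in both.

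The space between the stop codons was divided at its midpoint. In wild type in minimal medium 66.0% of a gene's reads ended on its own side, 27.9% on the partner's side and 6.06% past the partner's stop codon. The PCF11 mutant had shares of 52.7%, 32.4% and 14.9%. In wild type in rich medium they were 67.0%, 26.8% and 6.15%, and in the PAB2 mutant 62.5%, 29.3% and 8.17%. Within the 500 nt past the partner's stop codon, the first 100 nt took 2.58% of reads in the minimal-medium wild type and 4.45% in the PCF11 mutant, and the last 100 nt took 0.505% and 2.50%. The difference was thus found across the whole window, its far edge included, so that ends beyond 500 nt were not counted.

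**Figure D3:**
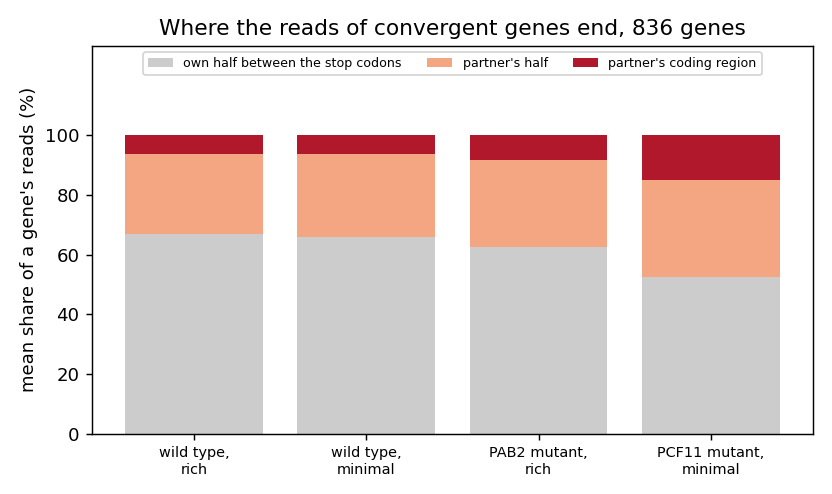
Mean share of a gene's reads (y axis, %) that ended on its own side of the midpoint between the stop codons, on the partner's side, or past the partner's stop codon, as stacked bars for each library over 836 genes. The part past the partner's stop codon is 6.06% in the minimal-medium wild type and 14.9% in the PCF11 mutant.

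The more read gene of a pair was the one with more reads in its window over the 4 libraries together, the mutants included. Which gene this was made little difference in wild type. In minimal medium, 5.80% of reads lay past the partner's stop codon for the more read gene and 6.33% for the less read one. In the PCF11 mutant the means were 12.3% and 17.5%, and in the PAB2 mutant 7.11% and 9.23%, against 5.85% and 6.45% in the rich-medium wild type. In each of the 4 libraries the less read gene had the higher share.

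Reads of a noncoding RNA could be taken for a gene's own end, and the annotation holds 7133 long noncoding RNA genes. A same-strand noncoding gene lay past the partner's stop codon for 442 of the 836 genes. Reads within such genes made up 4.89% and 4.34% of all reads past the partner's stop codon in the wild types, 6.63% in the PAB2 mutant and 9.92% in the PCF11 mutant. The PCF11 total of 30420 reads includes 9888 at a single position of SPBC11C11.06C outside such genes, which lowers that share. At the most used positions of well read genes outside the pairs, reads within 10 nt on the opposite strand were 0.00934%, 0.00960%, 0.0354% and 0.306% of the reads, in the same order. This opposite-strand share and the share in noncoding genes moved with the result, and their part in it was not tested.

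The downstream shift of ends was as frequent among all coding genes as among convergent ones. An end was called moved where the median position in the first 1000 nt past the stop codon differed by at least 50 nt between 2 libraries with at least 20 reads each. In the PCF11 mutant 357 of 1516 convergent genes (23.5%) ended at least 50 nt further downstream than in wild type, and so did 23.5% of all coding genes. For the PAB2 mutant it was 222 of 1933 (11.5%), against 11.3% of all coding genes. Between the wild types it was 85 of 1873 (4.54%), against 4.84%. Ends further upstream were found for 15, 21 and 51 convergent genes (0.989%, 1.09% and 2.72%) in those comparisons, against 1.16%, 1.02% and 2.99% of all coding genes. These shares lie near those of all coding genes and are no result about convergent genes.

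Moved ends were also counted by pair. Among 462 pairs with both ends measured in the PCF11 mutant and its wild type, 30 had both ends moved downstream, 153 had 1 and 279 had none. With the PAB2 mutation, 11 of 767 pairs had both, 152 had 1 and 604 had none. Between the wild types no pair of 719 had both and 66 had 1. Of single convergent genes, 23.5%, 11.5% and 4.54% moved downstream in these comparisons. The pair counts were not set against those that these shares would give, and are not read as joint movement of partners.

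In the PCF11 mutant, 192 of the 430 pairs with enough reads in it and in its wild type had an overlap probability higher by at least 20 percentage points, which is 44.7% of pairs, and 3 pairs had one lower by as much (0.698%). The median change over pairs was 16.1 points. Its ends overlapped in 85 pairs that did not overlap in wild type, and 3 pairs had the reverse. In the PAB2 mutant 88 of 733 pairs (12.0%) were higher by at least 20 points and 1 was lower (0.136%), with 57 pairs that overlapped only in the mutant and 8 only in wild type. Between the wild types 16 of 691 pairs (2.32%) were higher by 20 points in minimal medium and 4 were lower (0.579%). Each of these counts compares 1 library with 1 other, and no spread between cultures is known.

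**Figure D4:**
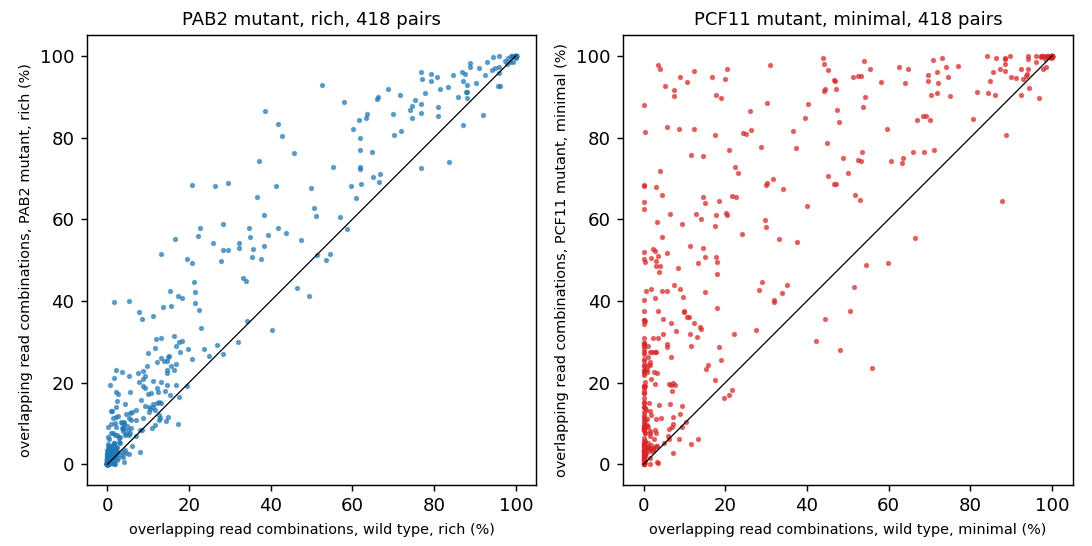
Overlap probability (%) of each of the 418 pairs in a mutant (y axis) against wild type of the same medium (x axis), with the PAB2 mutant on the left and the PCF11 mutant on the right. Points lie mostly above the line of equal values, and in the PCF11 mutant many pairs near 0 in wild type are spread up to 97.7%.

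Among the most read pairs the ends mostly stayed in place. Its3, the kinase that makes phosphatidylinositol 4,5-bisphosphate, faces tpp1, the trehalose-6-phosphate phosphatase, with 513 nt between the stop codons (chromosome I, 4074753 to 4075267). Its3 ended 239 nt past its stop codon in all 4 libraries, from 652 to 810 reads, and tpp1 ended 272 to 274 nt past its own, from 633 to 867 reads. The overlap probability was 8.81% in the rich-medium wild type, 9.44% in minimal medium, 11.4% in the PAB2 mutant and 9.03% in the PCF11 mutant. The ends of this pair met head to head in every library.

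The pair eft202, a translation elongation factor 2 gene, and rpl35A01, a gene of a large ribosomal subunit protein, kept a gap of 298 nt in all 4 libraries, with 68 nt and 38 nt of 3' end past the stop codons. Eft202 has a near-identical copy elsewhere in the genome, and how the authors placed reads that fit both is not given in the sources used here. The overlap probability was highest in the PCF11 mutant, at 1.54%, and at most 0.0435% in the other libraries. Pib2, a glutamine sensor, and tuf1, a mitochondrial elongation factor, kept a gap of 62 nt, with an overlap probability of 2.00%, 2.23%, 2.33% and 3.14% in the order of libraries used above. SPCC1259.08 and pdx1, named in the annotation as a pyruvate dehydrogenase protein, kept a gap of 146 nt in all 4 libraries. For rrp5, a factor of ribosomal RNA processing, and the ribosomal protein gene rpl101 the gap was 207 nt in 3 libraries and 204 nt in the PCF11 mutant. Another pair, SPBC30D10.05C and the replication fork protection gene swi3, had gaps of 73, 73, 72 and 23 nt. Swi3 was thus the exception among these 6 pairs, since the gaps or overlaps of the others differed by at most 3 nt between libraries.

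The pairs named next have the largest differences of their comparison, by a rule of size, and describe the extremes. Rpt4, an ATPase of the proteasome regulatory particle, faces yip3, a Rab GTPase-binding protein gene, with 992 nt between the stop codons (chromosome III, 407251 to 408244). Rpt4 had 385, 272, 413 and 1628 reads in the 4 libraries. Its end lay 253 nt past the stop codon in the first 3 libraries and 1484 nt in the PCF11 mutant, at the far edge of the window. Yip3 ended 648 nt past its stop codon in all 4. The overlap probability was 2.00%, 0.388%, 3.07% and 81.4%. Reads of rpt4 past the stop codon of yip3 were 0 of 272 in the minimal-medium wild type (Wilson interval up to 1.39%) and 1312 of 1628 in the PCF11 mutant, or 80.6% (78.6% to 82.4%). At most 2 reads of rpt4 lay past that stop codon in each of the other libraries. The distant end of the PCF11 mutant is the stretch shown above that starts at 408717.

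Nrf1, a subunit of the vacuolar transporter chaperone complex, faces the uncharacterised SPBC21B10.15 with 671 nt between stop codons (chromosome II, 1664950 to 1665622). Nrf1 had 530, 548, 416 and 330 reads in the same order, and its end lay 435, 215, 527 and 863 nt past the stop codon. Reads of nrf1 past its partner's stop codon were 5.66% (3.99% to 7.97%), 3.47% (2.23% to 5.35%), 32.9% (28.6% to 37.6%) and 89.4% (85.6% to 92.3%). The overlap probability was 7.65%, 7.33%, 37.3% and 90.2%. Both mutants used the position 863 nt past the stop codon more than wild type, the PCF11 mutant most, and the end of SPBC21B10.15 stayed at 89 nt in all 4 libraries.

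Vma11, a proteolipid subunit of the vacuolar ATPase, faces fpb26, a fructose-2,6-bisphosphate 2-phosphatase gene, with 691 nt between stop codons (chromosome I, 2058559 to 2059251). It had 612, 585, 474 and 1938 reads, of which 3.59% (2.39% to 5.38%), 5.64% (4.04% to 7.82%), 22.4% (18.8% to 26.3%) and 94.99% (93.9% to 95.9%) lay past the stop codon of fpb26. One position, 994 nt past the stop codon, took 98 of its 474 reads in the PAB2 mutant and 1730 of 1938 in the PCF11 mutant. The share was highest in the PCF11 mutant and next in the PAB2 mutant, as for nrf1. Fpb26 had only 18 reads in the PCF11 mutant, so that the pair is not among the 418.

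**Figure D5:**
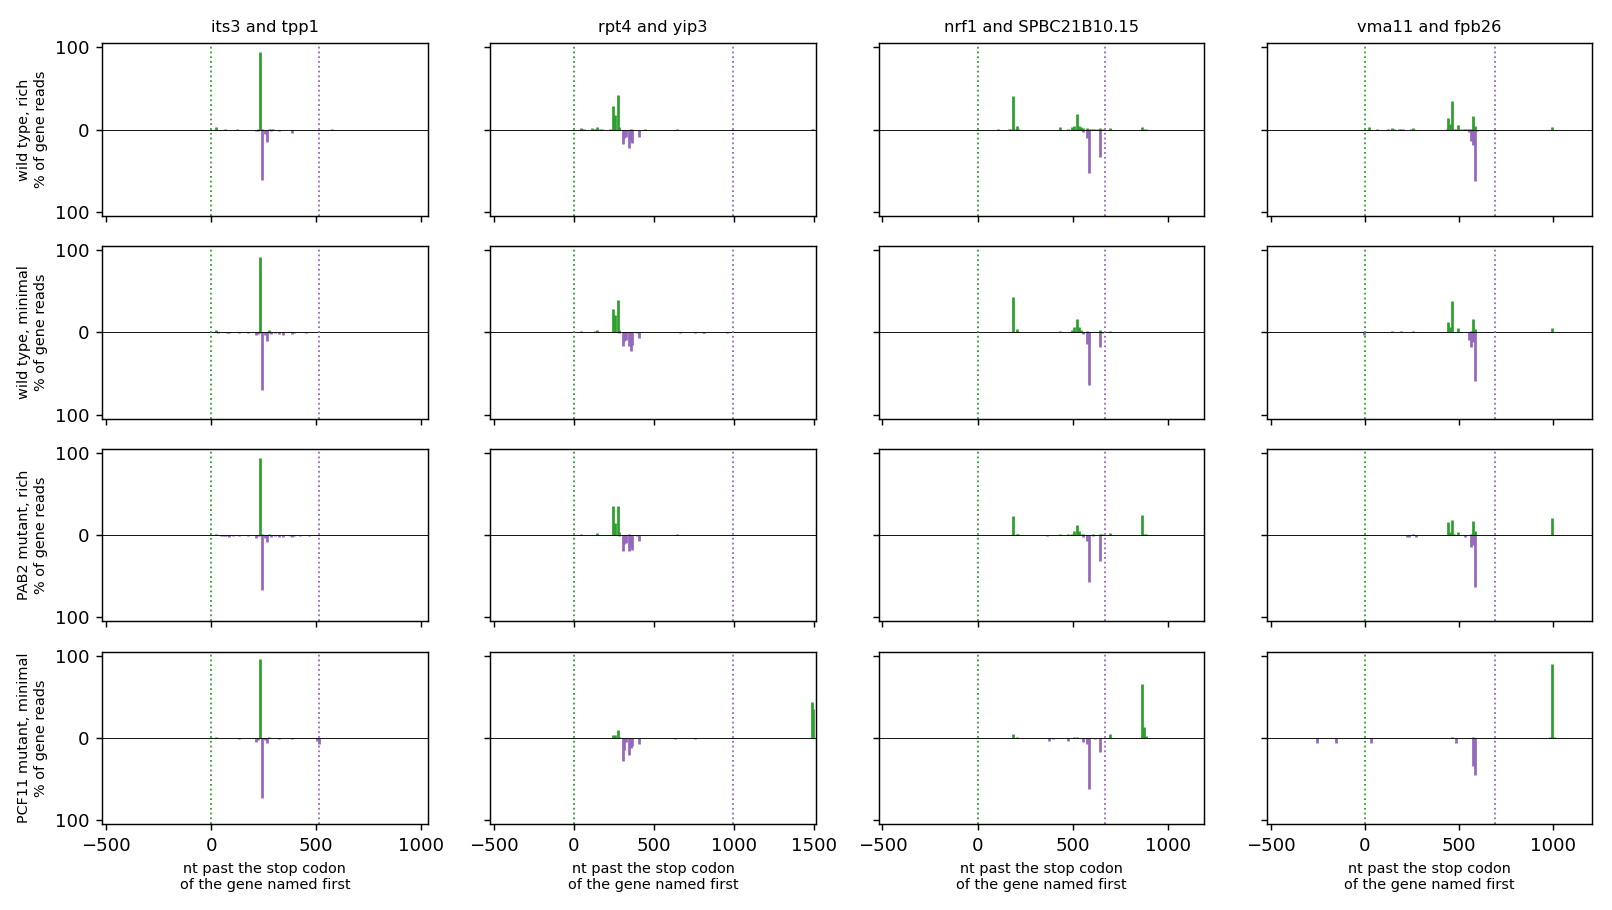
Share of a gene's reads in 10-nt bins (y axis, %) by distance from the stop codon of the gene named first (x axis, nt), for 4 pairs in columns and the 4 libraries in rows. The gene named first is drawn upwards in green and its partner downwards in purple, with dotted lines at the stop codons. Reads of its3 and tpp1 meet at one place in every row, and those of rpt4, nrf1 and vma11 lie past the partner's stop codon in the PCF11 mutant.

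SPBC11C11.06C, an uncharacterised gene, faces knh1, a KRE9-like protein gene, with 726 nt between stop codons (chromosome II, 3358633 to 3359360). It had 118, 196, 235 and 10650 reads, and its end lay 266, 271, 274 and 971 nt past the stop codon. One position took 9888 of the 10650 reads in the PCF11 mutant, 245 nt past the stop codon of knh1, and 97.7% (97.4% to 97.9%) of the reads lay past that stop codon, against 3.57% (1.74% to 7.19%) in the minimal-medium wild type. Knh1 ended 386 nt past its stop codon in all 4 libraries. The distant end and the high number of reads thus occurred in the same library.

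Cmk2, a MAPK-activated protein kinase gene, also had its distant end and most reads in the PCF11 mutant. It faces tsc3, of serine palmitoyltransferase, with 981 nt between the stop codons, and had 46, 51, 90 and 1422 reads. Its end lay 335 nt past the stop codon in 3 libraries and 1289 nt in the PCF11 mutant, and the overlap probability was 11.2%, 4.06%, 20.3% and 96.8%. For sum2, named in the annotation as a translation initiation inhibitor, and SPBC800.14C the overlap probability was 8.55%, 8.84%, 35.5% and 94.8%. Dbp3, a putative RNA helicase, had 1.74%, 1.86%, 15.3% and 85.4% of its reads past the stop codon of npg1, and npg1 itself had 5 to 45 reads. For cmk2, sum2 and dbp3 the PAB2 mutant lay between wild type and the PCF11 mutant.

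Other pairs stood out in the PAB2 mutant by the same rule of size. Mrp11, a mitochondrial ribosomal protein gene, and pre1, a proteasome core subunit gene, had an overlap probability of 20.7% in the rich-medium wild type and 68.4% in the PAB2 mutant, with 99.5% in the PCF11 mutant. Of the reads of mrp11, 10.7%, 62.5% and 98.6% lay past the stop codon of pre1 in these 3 libraries. For vtc2, a polyphosphate synthetase gene, and laf1 it was 52.5% and 92.8%, although both ends moved by at most 8 nt and no read of either passed the partner's stop codon. For pre3, another proteasome core gene, and otg3, a galactosyltransferase gene, it was 38.7% and 86.5%. For the last 2 pairs the ends lay between the stop codons in all 4 libraries.

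The pair of the WD repeat gene wdr55 and the lysophospholipase gene plb3 had 29.6% in the rich-medium wild type and 69.0% in the PAB2 mutant. The nucleoporin gene nup44 and tom5, of the mitochondrial import complex, had 13.0% and 51.5%. Fkh1, an FKBP-type prolyl isomerase gene, had 1.60% (0.544% to 4.59%) of its 188 reads past the stop codon of thf1 in the rich-medium wild type and 37.4% (31.8% to 43.3%) of 265 in the PAB2 mutant. Isa1, an iron-sulphur protein gene facing gep4, had 18.4% (14.1% to 23.6%) of 256 reads there and 55.2% (51.0% to 59.3%) of 558. Both fkh1 and isa1 also had more such reads in the PCF11 mutant than in its wild type, at 43.0% and 80.4% against 2.90% and 12.6%.

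Swi5, SPBC16A3.17C and rsm19 were also among the genes with the largest differences in reads past the partner's stop codon in the PAB2 mutant. For swi5, a recombination protein gene facing mis12, the share was 16.6% in the rich-medium wild type and 50.7% in the mutant. For SPBC16A3.17C, named as a transporter and facing coa5, it was 22.5% and 65.7%. Its most used position in the mutant, 731 nt past the stop codon with 126 reads, lies in the annotated same-strand noncoding gene SPNCRNA.6518. For rsm19, a mitochondrial ribosomal protein gene facing loc1, it was 22.5% and 56.5%. With the PCF11 mutation the 3 genes stood at 49.4%, 27.1% and 35.7%, the last on 28 reads.

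The overlap probability was lower than in wild type in 107 of 733 pairs in the PAB2 mutant and higher in 591. In the PCF11 mutant it was lower in 32 of 430 pairs and higher in 388. Few of the falls reached 20 points. Pis1, the phosphatidylinositol synthase gene, and rtf2, of replication termination, had an overlap probability of 55.8% in the minimal-medium wild type and 23.7% in the PCF11 mutant, where the end of rtf2 lay 97 nt instead of 135 nt past its stop codon. Met14, an adenylyl-sulfate kinase gene, and SPAC1782.12C had 48.1% and 27.9%. Est1, a telomerase regulator, and myo51, a type V myosin gene, had 59.8% and 49.3%. For the PAB2 mutant, the largest differences downwards were those of ssp1 and set7 (66.7% and 50%), adk1 and pcf11 (56.4% and 42.0%) and sor1 and SPAC9E9.06C (40.7% and 27.1%). These differences are smaller than the largest upward ones.

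The largest falls in the share of reads past the partner's stop codon, by the rule of size, are given next. SPAC29B12.14C, a purine transporter gene, had 16.4% in the rich-medium wild type and 3.83% in the PAB2 mutant, and sen2, of the tRNA-splicing endonuclease, had 75.7% and 63.3%. In the PCF11 mutant, mrh5, an RNA helicase gene, had 2.97% against 17.8% in its wild type, and bhd1, the folliculin gene, had 14.1% against 25.6%. For bhd1 the PAB2 mutant had 60.4% against 33.1%, so that the mutants differed in direction.

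The 2 media gave smaller differences in wild type. Ain1, an alpha-actinin gene, and pun1 had an overlap probability of 28.3% in rich and 53.4% in minimal medium, and bbl1 and the peptide transporter gene ptr2 had 33.8% and 58.2%. Gga22 and tsr401 had 55.2% and 77.0%, ppr1 and egt1 66.0% and 85.5%, and the ribosomal protein gene rps1401 with aar2 35.5% and 54.4%. In the other direction, ret2, a coatomer gene, and cgs2, a cAMP phosphodiesterase gene, had 77.0% and 42.3%. Ret2 ended 1220 nt past its stop codon in rich medium on 140 reads and 121 nt in minimal medium on 50 reads. Its end was at 1220 nt in the PAB2 mutant in rich medium and at 121 nt in the PCF11 mutant in minimal medium, so that the libraries divided by medium. The most used position at 1220 nt lies in an annotated same-strand noncoding gene, SPNCRNA.7505, and whether these reads belong to ret2 was not tested. The other pairs lower in minimal medium were rad26 and atd1 (31.3% and 13.2%) and tip1 and SPAC3C7.13C (46.2% and 29.0%).

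By share of reads past the partner's stop codon, egt1 had 63.0% in rich and 83.7% in minimal medium, rps2602 41.5% and 60.7%, mrp2 29.5% and 46.0%, SPAC9.11 10.6% and 23.3%, and qcr8 52.7% and 65.2%. The share was lower in minimal medium for SPAC25G10.01 (35.3% and 12.1%) and rmn1 (77.5% and 61.5%). Both were at 62.7% or above in each mutant. Rmn1 is a subunit of the exosome adaptor complex that works in nuclear RNA decay.

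The longest overlap of ends in the rich-medium wild type among the 418 pairs was that of fis1, of mitochondrial division, and end3, of the actin cortical patch, at 1114 nt with 555 nt between stop codons. It was 1130, 1115 and 1243 nt in the other libraries. Ret2 and cgs2 followed with 891 nt, and mcp4 and erp5 with 622 nt, a length that the latter pair also had in both mutants. The most used positions behind both overlaps lie in annotated same-strand noncoding genes, SPNCRNA.7505 for ret2 and SPNCRNA.1476 for erp5. The longest gap was that of naa20, an acetyltransferase gene, and the ribosomal protein gene rpl1201, at 802 nt in 3 libraries and 666 nt in the PCF11 mutant. Rps20 and rpt3 had gaps of 652, 652, 355 and 180 nt, and SPAC4H3.09 and the pyruvate kinase gene pyk1 had 624 nt in 3 libraries and 504 nt in the PCF11 mutant. These gaps were thus narrower in the PCF11 mutant, and none of them was closed.

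Genes of heterochromatin and RNA interference were looked at as a list because these pathways can act on double-stranded RNA. Of 24 genes, 15 lie in convergent pairs, and 2 of these pairs were among the 418, so most of the list was read too little. Hrr1, a helicase that acts with the RNA-directed RNA polymerase, and dms1 had an overlap probability of 64.8%, 59.6%, 76.6% and 82.1% in the order used above. Raf2, of the histone methyltransferase complex, and erv29 had 1.59%, 0%, 2.70% and 88.0%, and raf2 ended 28 nt past its stop codon in 3 libraries and 481 nt in the PCF11 mutant. Both pairs were highest in the PCF11 mutant, as the median of all pairs was.

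Argonaute, ago1, faces mmi1, which marks meiotic RNAs for decay, with 816 nt between stop codons, and their overlap probability was 4.06%, 5.12%, 22.0% and 25%, the last on 44 and 12 reads. Rdp1, the RNA-directed RNA polymerase, had 12 to 22 reads, and its overlap probability with ade3 was 38.6%, 49.7%, 60.5% and 79.1%. Rik1, of the methyltransferase complex, had 34.8%, 57.3%, 97.4% and 100% of its reads past the stop codon of SPCC11E10.09C, the last on 12 reads. Cid12 and naa50 had 57.2%, 85.5%, 67.2% and 90.5%, and clr6, a histone deacetylase, with cys11 had 45.7%, 45.3%, 77.1% and 91.7%. Stc1 and mug30 had 83.8%, 81.6%, 93.9% and 82.9%. Arb2 with crb3 and clr2 with mrps18 had at least 70.9% in every library, and sec3 with mst2 had 100% in all 4. These values rest on few reads, with 7 to 16 for arb2, 2 to 19 for mrps18 and 1 to 15 for sec3. Dcr1, clr4, ers1 and mit1 also had at most 16 reads in each library.

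Of 30 genes of cleavage, termination and nuclear RNA decay, 12 lie in convergent pairs and 1 pair was among the 418. That pair is pla1, the poly(A) polymerase, and erg9, squalene synthase, with an overlap probability of 14.6%, 15.1%, 23.0% and 42.3%. Pcf11 faces adk1, adenylate kinase, with 259 nt between stop codons, and had 60, 80, 51 and 13 reads in this window. Its end lay 167, 167, 96 and 206 nt past its stop codon. Seb1, which binds the polymerase tail in termination, ended 114 nt past its stop codon in all 4 libraries, and its overlap probability with byr4 was 0.930%, 2.07%, 6.64% and 74.2%, the last on 7 reads of byr4.

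Cft2, a cleavage factor subunit, and ngl1 overlapped in nearly all combinations in every library, at 100% in 3 and above 99.9% in the rich-medium wild type, with 941 to 948 nt of overlap. The most used position of ngl1 lies in the annotated same-strand noncoding gene SPNCRNA.1413 in all 4 libraries. Iss1, a Fip1-like factor, had 77.9%, 91.7% and 95.3% of its reads past the stop codon of cum1 in the minimal-medium wild type and the 2 mutants. Rna15 with mrpl9 overlapped in at least 84.7% of combinations in each library. Dhp1, the nuclear 5'-3' exonuclease, with SPAC26A3.11 had 66.2% to 73.7%. The overlap probability of red1 with asa1 was 21.7%, 15.9%, 30.2% and 59.7%. Rrp6, mtl1 and ppn1 had partners or own counts below 20 reads in at least 2 libraries. The genes nmt1 and gut2, known from work on convergent transcription, lie further apart than 1000 nt and are not members, and nmt2 was not found under that name.

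Gene levels were compared as reads plus 1 from the start codon to 1000 nt past the stop codon, scaled by TMM (trimmed mean of M values, a normalisation that sets most genes to no change), for the genes that had 100 or more reads over both libraries. Of 1461 convergent genes, 368 (25.2%) were at least 2-fold higher in the PCF11 mutant than in its wild type and 342 (23.4%) at least 2-fold lower, against 23.9% and 25.6% of all coding genes. In the PAB2 mutant 86 of 1698 were higher and 69 lower, against 4.68% and 5.98% of all coding genes. Between the media 39 of 1628 were higher in minimal medium and 14 lower, against 2.71% and 1.01%. Scaled to total nuclear reads instead, 156 convergent genes were higher and 681 lower in the PCF11 mutant, and 50 and 119 in the PAB2 mutant. That scaling moved the median log2 ratio of all coding genes from -0.06 to -0.95 in the PCF11 mutant, from 0.04 to -0.20 in the PAB2 mutant and from 0.01 to 0.08 between the media. The count of genes higher or lower thus depends on the scaling, whereas positions within a gene do not.

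Genes past 2-fold were also counted by pair. In the PCF11 mutant both genes were at least 2-fold higher in 28 of 426 pairs, both lower in 24, and one higher with the other lower in 40. With the PAB2 mutation these counts were 4, 0 and 1 of 592 pairs, and between the media 0, 1 and 0 of 548. The correlation r of the partners' log2 ratios was 0.05 for the PCF11 mutant, 0.01 for the PAB2 mutant and -0.05 between the media. The counts were not set against those that the shares of single genes would give, and are not read as joint change of partners. No adjustment of overlap for level was made. Pairs whose genes stayed within 2-fold in every comparison, an alternative added after seeing the data, gave overlapping shares of 18.1%, 19.0%, 21.9% and 39.0%. They are far fewer than the pairs of the main summary. The part of gene level in the overlap was not tested.

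At the limit of 1000 nt, eng1 and the superoxide dismutase gene sod1 (995 nt) had an overlap probability of 0.260%, 0.164%, 0.308% and 62.6%, and ght3 with shu1 (994 nt) had at most 4 reads in the PCF11 mutant. The most used position of sod1 in the PCF11 mutant, 833 nt past its stop codon, lies in the annotated same-strand noncoding gene SPNCRNA.2442. Just outside, SPBC23G7.14 and rpp202 (1003 nt) had 18.3%, 41.3%, 40.2% and 65.7%, and tsr402 with asl1 (1004 nt) had 0.900%, 0.906%, 3.24% and 24.9%. The pairs just outside were also highest in the PCF11 mutant.

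The most used positions of both genes lay within 50 nt of each other in 115, 124, 123 and 127 of the 418 pairs, and within 10 nt in 21, 24, 20 and 24 pairs. The adjacent positions of its3 and tpp1 are one of 3 pairs within 1 nt in each library. Close facing positions were thus about as frequent in the mutants as in wild type.

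Sequence elements were counted on the transcribed strand at each gene's most used position over all 4 libraries. AATAAA, the canonical poly(A) signal, lay 10 to 35 nt upstream in 18.8% of 2002 convergent genes and 18.2% of 1907 other coding genes, against 4.30% and 3.99% at positions 200 nt further downstream. GTA, letters of a known Seb1-binding motif, lay within 30 nt downstream in 53.2% and 54.2%, against 39.0% and 38.9%. Convergent genes thus carried both at shares near those of the other genes. Of the 357 convergent genes whose end moved downstream in the PCF11 mutant 14.3% had AATAAA at the wild-type position, against 21.0% of the 1159 that had not, and 52.1% and 53.8% had GTA. For the PAB2 mutant the shares of AATAAA were 12.6% of 222 and 19.1% of 1711, and those of GTA 46.8% and 53.4%. Among other coding genes the shares of AATAAA were 13.2% and 19.4% for the PCF11 mutant and 14.5% and 17.5% for the PAB2 mutant, and those of GTA 45.5% and 56.0%, and 48.5% and 55.1%. In both kinds of genes AATAAA and GTA were thus both less frequent at the wild-type positions of ends that moved. The differences varied in size and were not tested. These are matches of letters and show no use of a site.

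The share of A was counted in the 20 nt after each position, since A-rich RNA can be primed within rather than at its tail. After positions past the partner's stop codon 27.7%, 27.3%, 28.2% and 28.4% of bases were A in the 4 libraries, and after positions between the stop codons 30.5%, 30.5%, 31.0% and 31.8%. Runs of 6 A followed 0.990%, 0.905%, 0.733% and 0.557% of positions past the stop codon and 2.09%, 2.00%, 2.07% and 1.88% of those between. Positions past the partner's stop codon were thus followed by fewer A than those between the stop codons. In the deposited positions A was already rare at the next base, and the A content of the surrounding sequence was not counted. Priming within the RNA was therefore not tested.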

How the data were processed

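The deposited values are raw counts, one line for each position on a strand with the number of reads that end there, and neither a header nor a normalization by the authors is recorded. Per the labels' protocols, the 3' ends of poly(A)+ RNA were amplified from total RNA. The aligner was Bowtie2 (version not given) and the assembly ASM294v2, per the submitters' processing notes. The reference annotation and genome used here name the assembly ASM294v3. At positions with at least 20 reads, the base that follows was A in at most 2.35% in any 250 kb segment of any library, against 29.2% to 32.0% for the base 8 nt downstream by chromosome, so the positions were read as 1-based coordinates of that genome. The step that left so few A there, before deposition, is not given in the sources used here.

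Pairs, windows, medians, overlap probabilities and 95% Wilson intervals were computed in Python 3.11.15 with scipy 1.17.1 and figures with matplotlib 3.10.9. TMM factors came from edgeR 4.0.16 in R 4.3.3, used for scaling only. Intervals cover counting error, or the sampling of pairs, and reads without molecular identifiers are not independent molecules. Each group has 1 library, so no p-value is given and counts over all coding genes stand beside those of convergent genes. The scripts were tested on simulated data. The S. cerevisiae libraries were not used here.

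Named pairs follow a fixed rule. It takes the 6 pairs with most reads in the less read gene. Per comparison it takes the 5 largest rises and 3 largest falls in overlap probability (both genes with at least 50 reads in both libraries), and the 5 largest rises and 2 largest falls in share of reads past the partner's stop codon (at least 100 reads). It adds the 3 longest overlaps and gaps in the rich-medium wild type, the convergent members of the 3 gene lists, and the pairs nearest the limit of 1000 nt. The members and lists were chosen with earlier results of these data known. Alternatives varied the read minimum, the window, the definition of an end, the size of a move, the pooling of reads, and the scaling.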

Additional observations from a re-analysis of the deposited data

How the results depend on the processing

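In both mutants the share of overlapping pairs was above that of the wild type of the same medium under every alternative tried. The same held for the mean share of reads past the partner's stop codon. Between the wild types the differences changed sign. In overlapping pairs they were not always smaller than that of the PAB2 mutant. With no other annotated gene, the wild types differed by -4.40 points (minimal minus rich medium) and the PAB2 mutant from its wild type by 2.20 points. With a minimum of 50 reads these differences were 2.09 and 2.62 points. The levels depended on the pairs used, and the causes were not tested. No paired analysis was possible because each S. pombe group has 1 library. With 1 library per group, no spread between cultures is known, and depth limits the 823 pairs left out. All values below are in the order of the rich-medium wild type, the minimal-medium wild type, the PAB2 mutant and the PCF11 mutant.

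With a minimum of 10 reads, overlapping pairs were 28.2%, 30.1%, 34.3% and 49.8%, reads past the partner's stop codon 9.11%, 9.16%, 11.6% and 18.9%, and the median overlap probability 13.3%, 21.6% and 53.6% in the last 3 libraries. With a minimum of 50 reads, the overlap probability was 2.71%, 2.77%, 7.26% and 27.5%, overlapping pairs were 22.5% in the PAB2 mutant, and reads past were 6.14% and 11.4% in the mutants. With a mean of at least 20 reads, overlapping pairs were 29.5%, 31.8%, 36.2% and 52.5%, the probability 13.2%, 16.5%, 24.9% and 58.6%, and reads past 10.02%, 10.1%, 12.7% and 20.7%. With 200 nt beyond the partner's stop codon, they were 18.4%, 20.1%, 23.5% and 36.1%, then 4.44%, 5.67%, 10.5% and 27.1%, then 3.15%, 3.22%, 4.26% and 7.52%, and the difference of the PCF11 mutant in reads past was 4.30 points. With no other annotated gene, overlapping pairs were 35.2%, 30.8% and 37.4% in the first 3 libraries, the probability 14.9%, 13.2%, 25.7% and 53.5%, and reads past 12.2%, 12.3%, 14.9% and 23.0%. Without positions of 1 read, the probability in the minimal-medium wild type was 5.16%. Pooled over genes, reads past were 1.80%, 1.76%, 3.04% and 6.01%, the last with 9888 of 30420 reads at a single position of SPBC11C11.06C.

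The alternatives given next were chosen after seeing the data. With pairs that pass in that library alone, the first 3 libraries had 29.99%, 31.0% and 38.7% overlapping, a probability of 14.6%, 16.8% and 28.1%, and reads past of 10.4%, 10.3% and 13.3%. With reads of both genes within 2-fold, overlapping pairs were 18.1%, 19.0% and 21.9% in the first 3, the probability 3.32%, 3.16%, 8.79% and 34.7%, and reads past 3.35%, 3.16% and 5.23% in the first 3.

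Counts of moved ends are given as downstream and upstream. At a minimum of 50 reads they were 128 and 12 in the PAB2 mutant, 184 and 6 in the PCF11 mutant and 47 and 25 between the media, from fewer genes. For a move of 100 nt, upstream counts were 12 and 6 in the mutants and 40 genes moved downstream between the media. For a move of 25 nt, 28 moved upstream in the PCF11 mutant and 128 downstream between the media. With the most used position as the end, 33 and 25 moved upstream in the mutants. Genes past 2-fold, higher and lower, were 50 and 119 in the PAB2 mutant and 156 and 681 in the PCF11 mutant when scaled to total nuclear reads. At a minimum of 20 reads they were 156 and 156, 566 and 550, and 73 and 48 between the media.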
